A study of Ovis aries with 22 samples.

Results

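The genes described here are the core of the Notch pathway in the artery wall: the receptors NOTCH1, NOTCH2, NOTCH3 and NOTCH4, the ligands JAG1, JAG2 and DLL4, and the effectors HEY1, HEY2 and HEYL. They were listed by name, with earlier results of these data known, and make 10 of the 26200 named genes in the count tables. For 9 of them the tables carry the symbol. JAG2 stands under the gene ID LOC105605912, to which RefSeq (assembly ARS-UI_Ramb_v3.0) gives that symbol. All 10 passed the filter on low counts, which left 14979 genes.

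RNA was sequenced from the arterial sinus wall of sheep (Ovis aries) in a model of the Ross procedure, in which an animal's own pulmonary root is moved into the aortic position. Autograft sinus, the transplanted wall, came from 3 operated sheep 6 months after surgery. Native aortic sinus and native pulmonary sinus came from the same 4 non-operated sheep, named D3 to D6. Autograft against pulmonary sinus compares the moved tissue with its tissue of origin, autograft against aortic sinus compares it with the wall native to its new position, and aortic against pulmonary sinus compares both native walls. The sources used here give no breed, sex or age. Operated and native tissue came from different animals, so the effect of the surgery and differences between animals cannot be told apart. Aortic 1 (D3) is marked as operated in 1 label field, against the study's design text, and was kept as native aortic sinus.

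Notch receptors sit in the cell membrane and are activated by ligands on a neighbouring cell. Activation cuts the receptor, and its intracellular part enters the nucleus, where it joins the DNA-binding protein RBPJ and a Mastermind-like coactivator (MAML genes) and switches on HEY and HES genes, which encode transcriptional repressors. In arteries NOTCH1, NOTCH4 and DLL4 are known mainly from endothelium, the inner cell lining. NOTCH3 is known as the receptor of vascular smooth muscle and pericytes, where JAG1 on the endothelium and on neighbouring muscle cells is its best studied ligand.

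Library totals lay between 17380599 and 20741334 counts. On the second principal component autograft 1 lay alone, and on the first pulmonary 1 was nearest to aortic libraries. The smooth muscle markers had the highest sums of the cell type lists, 31305 to 59974 CPM (counts scaled to library size) in autograft, 59485 to 83636 CPM in aortic and 63252 to 102329 CPM in pulmonary libraries; the wall of an artery is rich in such cells. The summed level of 15 endothelial markers varied far more: 222, 2287 and 1305 CPM in autograft 1, 2 and 3, from 345 to 879.6 CPM in aortic libraries, and 590.3, 195, 203 and 203 CPM in pulmonary 1, 2, 3 and 4. In such bulk tissue, fewer cells of a type and less RNA per cell cannot be told apart.

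Levels can be compared between genes only per length, for which the authors' FPKM values (fragments scaled to transcript length and depth) were used. HEY2 and NOTCH3 had the highest FPKM levels of these genes, averaging 34.7 and 34.4 FPKM over the 11 libraries. HEYL averaged 21.7, JAG1 17.8 and NOTCH2 16.3 FPKM. NOTCH1 at 4.92, HEY1 at 4.56, DLL4 at 1.73 and NOTCH4 at 1.53 FPKM were the low members. HEY2 ran from 13.0 to 67.9 FPKM and NOTCH3 from 23.7 to 51.7 FPKM over the libraries, so the order of HEY2 and NOTCH3 is not larger than their spread. JAG2 had 2 to 15 raw counts in a library, the lowest count of the 10 genes in each library.

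**Figure D1:**
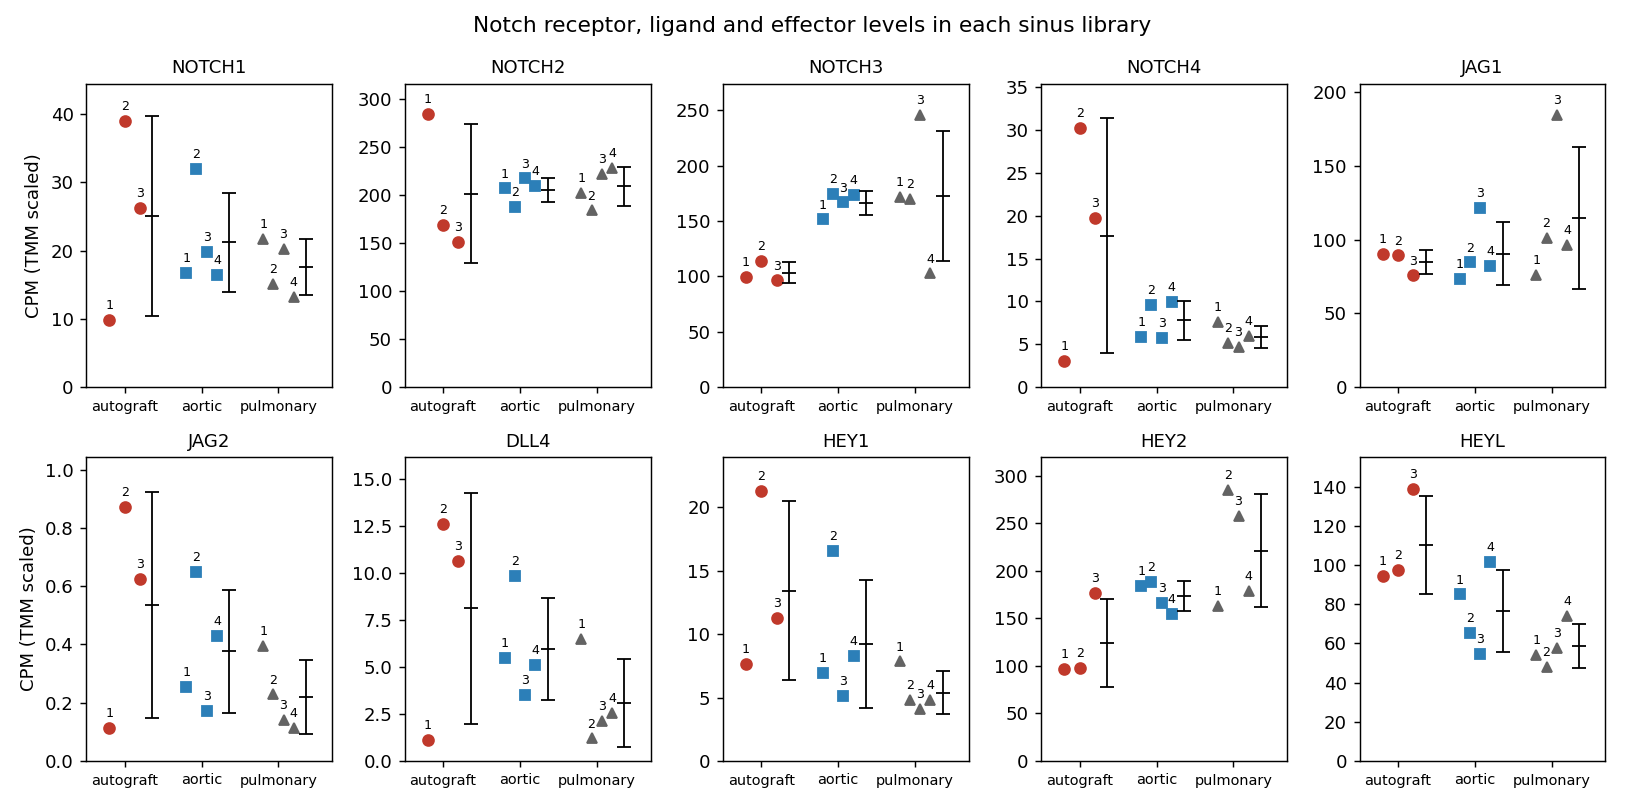
CPM (vertical axis of each panel, linear, starting at 0) of the 10 Notch genes in each library, with replicate numbers beside the points; the bar beside each group is its mean ± SD (autograft n = 3, aortic and pulmonary n = 4). HEYL is the panel where every autograft library lies above every pulmonary library, and NOTCH3 the panel where every autograft library lies below every aortic library.

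Of the 10 genes, 1 passed the test between autograft and pulmonary sinus: HEYL, which was higher in the autograft. A gene was called when its adjusted p was under 0.05 in edgeR's quasi-likelihood test with Benjamini-Hochberg adjustment over all genes. By that rule 11.3% of all tested genes were called, so 1 of 10 is close to the background and is no result about the pathway as a group. The median log2 fold change of the 10 genes was 0.71, beside 0.00 over all genes, and 6 of the 10 were positive. An unadjusted p under 0.05 was found for 5 of the 10, beside 4588 of all 14979 genes. DESeq2 called 5 of the 10, beside 2997 genes in all. The libraries of both groups did not overlap for 1 of the 10 genes, against 22.1% of all genes. The count of 1 depended on single libraries: it was 0 without autograft 2, pulmonary 2 or pulmonary 3, 2 without autograft 1, aortic 2 or pulmonary 4, and 3 without pulmonary 1. The calls over all genes, 1699 in the main fit, moved too. They were 452, 522 and 505 without autograft 2, pulmonary 2 and pulmonary 3, and 1181, 1417 and 1004 without autograft 1, aortic 2 and pulmonary 4. Without pulmonary 1 they were 2757.

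Between autograft and aortic sinus none of the 10 was called by edgeR, against 2.38% of all genes. An unadjusted p under 0.05 was found for 2 of the 10, beside 3445 of all 14979 genes. DESeq2 called 1 of the 10, beside 1469 genes in all, and limma-voom called 0 of the 10. Without autograft 1 the edgeR count was 1. The groups of 1 gene did not overlap, against 20.6% of all genes. Between aortic and pulmonary sinus 0 of the 10 were called by edgeR, and 0 (0%) of all genes. None of the 10 had an unadjusted p under 0.05, beside 306 of all genes. DESeq2 and limma-voom called 0 of the 10, and the groups of each overlapped, against 1.42% of all genes without overlap.

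**Figure D2:**
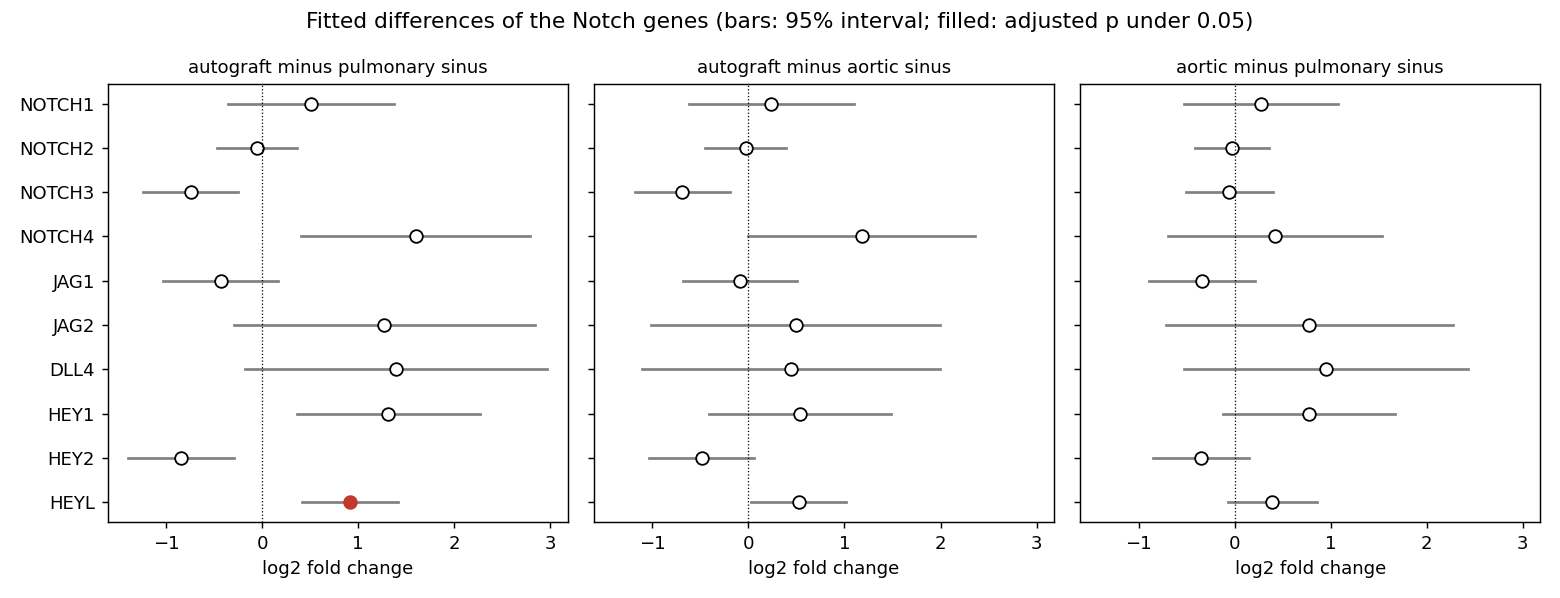
Fitted log2 fold changes (horizontal axis) of the 10 Notch genes in the 3 comparisons, with 95% intervals as bars and called genes as filled points. HEYL in autograft minus pulmonary sinus, at 0.92, is the 1 filled point.

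Among the receptors, NOTCH3 was the one whose autograft libraries lay together at a low level. It had 99.9, 114 and 96.4 CPM in the autograft libraries, 151, 174, 167 and 174 CPM in the aortic libraries, and 172, 170.4, 246 and 103 CPM in the pulmonary libraries. All 3 autograft libraries were below all 4 aortic ones, and pulmonary 4 lay within the autograft range. The mean was 103 ± 9.20 CPM (SD, n = 3) in autograft, 167 ± 10.6 CPM (SD, n = 4) in aortic and 173 ± 58.6 CPM (SD, n = 4) in pulmonary sinus. The log2 fold change was -0.74 ± 0.23 (SE) against pulmonary sinus, with an edgeR adjusted p of 0.0558, and -0.69 ± 0.23 against aortic sinus, with an adjusted p of 0.113. Neither passed the threshold. Without pulmonary 4 the difference from pulmonary sinus was -0.92 with an adjusted p of 0.0188, and DESeq2 called it as well, at -0.74 and 0.0148. Against aortic sinus DESeq2 gave -0.68 with an adjusted p of 0.0462, and the fit of those groups alone gave -0.69 with an adjusted p of 0.0350.

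NOTCH2, a receptor found in many cell types of the wall, had 284, 169 and 151 CPM in autograft libraries, 207, 187, 217 and 209 CPM in aortic libraries and 202, 184, 221 and 228 CPM in pulmonary libraries. Autograft 1 was the highest of all 11 libraries and autograft 3 the lowest, so the autograft group spans the native ones. Its log2 fold change against pulmonary sinus was -0.05, with a 95% interval from -0.47 to 0.37.

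NOTCH1 and NOTCH4, the receptors of endothelium, both split the autograft group. NOTCH4 had 3.09, 30.3 and 19.8 CPM in autograft 1, 2 and 3, against 5.88, 9.65, 5.79 and 9.93 CPM in aortic libraries and 7.57, 5.19, 4.68 and 5.94 CPM in pulmonary libraries. NOTCH1 had 9.84, 38.99 and 26.3 CPM in autograft libraries, against 16.7, 31.9, 19.8 and 16.4 CPM in aortic libraries and 21.7, 15.1, 20.2 and 13.3 CPM in pulmonary libraries. For both genes autograft 1 was the lowest of the 11 libraries and autograft 2 the highest. NOTCH4 gave a log2 fold change of 1.60 ± 0.54 against pulmonary sinus (edgeR adjusted p 0.0767) and 1.18 ± 0.54 against aortic sinus (adjusted p 0.218). NOTCH1 gave 0.51 ± 0.39 and 0.24 ± 0.39, with edgeR adjusted p of 0.407 and 0.751. Without autograft 1 NOTCH4 was called in both comparisons, at 2.09 with an adjusted p of 0.0080 against pulmonary and 1.68 with an adjusted p of 0.0283 against aortic sinus. Without autograft 2 its differences were 0.96 (adjusted p 0.292) and 0.55 (adjusted p 0.598), and that of NOTCH1 against pulmonary sinus was 0.03.

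The mix of the receptors followed from these levels. Of the summed FPKM of all 4 receptors, NOTCH3 made 54.1%, 47.0% and 52.2% in autograft libraries, from 58.9% to 65.4% in aortic libraries and from 54.4% to 68.3% in pulmonary libraries. NOTCH4 made 0.914%, 9.17% and 6.79% in autograft 1, 2 and 3, from 1.56% to 2.54% in aortic and from 0.884% to 2.02% in pulmonary libraries. NOTCH3 was the largest share in each of the 11 libraries, with NOTCH2 second.

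**Figure D3:**
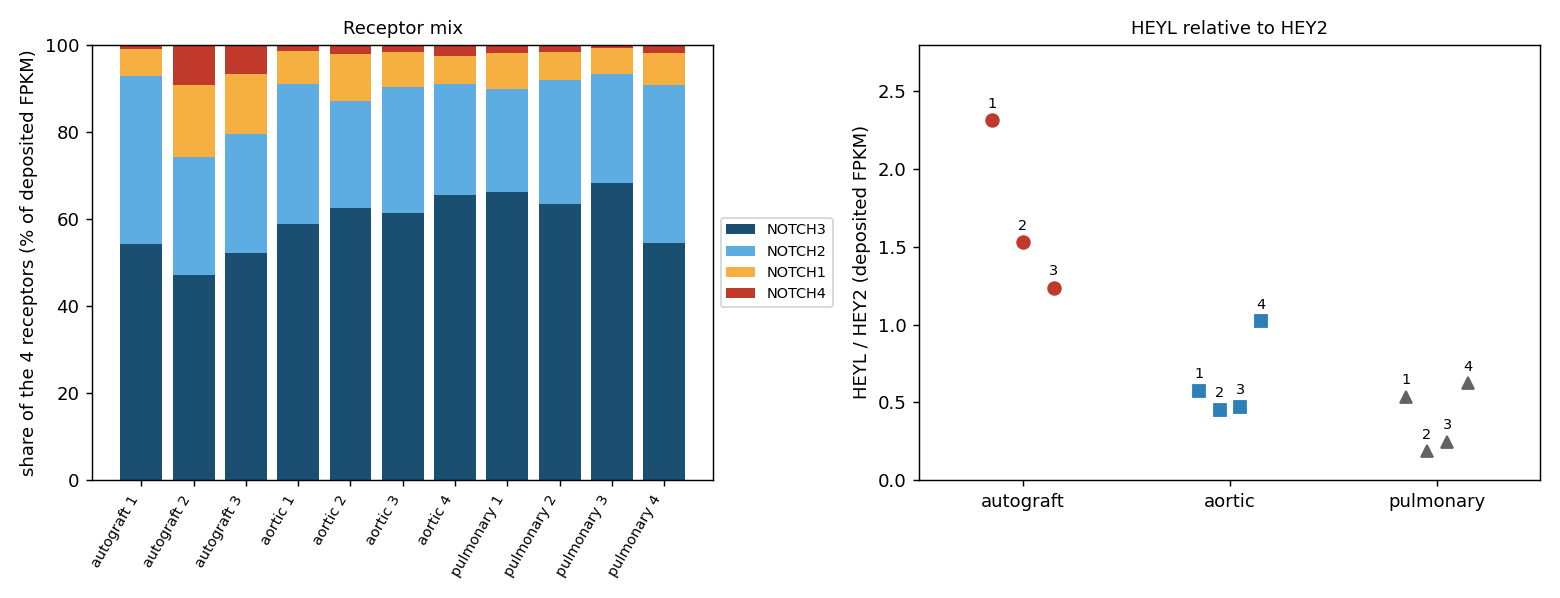
Left, share of each receptor in the summed FPKM of NOTCH1 to NOTCH4 (vertical axis, percent) in each library; right, HEYL divided by HEY2 in deposited FPKM in each library, with replicate numbers. NOTCH4 takes 9.17% and 6.79% in autograft 2 and 3 and 0.914% in autograft 1, and the 3 autograft ratios of HEYL to HEY2 lie between 1.24 and 2.31.

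Of the ligands none was called by edgeR, and 0 had an unadjusted p under 0.05 in any comparison. JAG1, the ligand with the highest level, had 90.2, 89.3 and 75.8 CPM in autograft libraries, 73.6, 84.6, 121 and 82.1 CPM in aortic libraries, and 76.2, 101, 185 and 96.4 CPM in pulmonary libraries. Pulmonary 3 was the highest, and the groups overlapped. Its log2 fold change was -0.43 against pulmonary sinus, with a 95% interval from -1.03 to 0.17, and -0.09 against aortic sinus, with an interval from -0.68 to 0.51.

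DLL4, a ligand of arterial endothelium and of sprouting vessel tips, had 1.12, 12.6 and 10.7 CPM in autograft libraries, 5.48, 9.85, 3.50 and 5.10 CPM in aortic libraries, and 6.49, 1.20, 2.11 and 2.57 CPM in pulmonary libraries. Autograft 1 was the lowest of all libraries and autograft 2 the highest. The log2 fold change against pulmonary sinus was 1.40 ± 0.72 (edgeR adjusted p 0.212), and it was 0.93 (0.484) without autograft 2, 1.91 (0.0599) without autograft 1 and 2.04 (0.0721) without pulmonary 1. JAG2, also an endothelial ligand, had 2, 15 and 11 raw counts in autograft libraries, 5, 13, 3 and 8 in aortic libraries and 7, 4, 3 and 2 in pulmonary libraries. It gave 1.27 ± 0.71 against pulmonary sinus (adjusted p 0.252), and these counts leave an interval from -0.30 to 2.84; without autograft 2 it was 0.73 (adjusted p 0.604). Leaving out both pulmonary 1 and autograft 1, a choice made after the data had been seen, DLL4 was called at 2.54 with an adjusted p of 0.0092.

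Of the effectors, HEYL rose in the autograft against pulmonary sinus. HEYL had 94.4, 97.4 and 139 CPM in autograft libraries, 85.0, 65.5, 54.4 and 102 CPM in aortic libraries, and 54.3, 47.8, 57.5 and 74.2 CPM in pulmonary libraries. Every autograft library was above every pulmonary one, while aortic 4 lay within the autograft range. The means were 110.2 ± 24.9 CPM (SD, n = 3) in autograft and 58.4 ± 11.2 CPM (SD, n = 4) in pulmonary sinus, a fold of 1.89. The log2 fold change was 0.92 ± 0.23 with an edgeR adjusted p of 0.0297. Against aortic sinus it was 0.52 ± 0.23 with an adjusted p of 0.197. The call was lost without autograft 2 (adjusted p 0.0582), autograft 3 (0.0826), pulmonary 2 (0.0833) or pulmonary 3 (0.0798), while the log2 fold change stayed between 0.71 and 1.05 whichever library was left out. On the deposited FPKM values, as log2(FPKM + 1) in limma, it was 1.02 with an adjusted p of 0.0222.

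HEY2, the HEY gene with the highest FPKM level and one known from vascular smooth muscle and developing arteries, pointed the other way. It had 96.3, 97.4 and 177 CPM in autograft libraries, 184, 188, 166 and 155 CPM in aortic libraries, and 163, 285, 258 and 179 CPM in pulmonary libraries. Autograft 1 and 2 were the lowest of all libraries, and autograft 3 lay among the native ones. The log2 fold change was -0.84 ± 0.25 against pulmonary sinus (edgeR adjusted p 0.0531) and -0.49 ± 0.25 against aortic sinus (adjusted p 0.268). Without autograft 3 it was called against pulmonary sinus, at -1.20 with an adjusted p of 0.0183, and without pulmonary 1 at -0.98 with an adjusted p of 0.0251.

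HEY1, an effector of Notch in endothelium and smooth muscle, had 7.65, 21.3 and 11.3 CPM in autograft libraries, 6.95, 16.5, 5.10 and 8.27 CPM in aortic libraries, and 7.85, 4.79, 4.12 and 4.80 CPM in pulmonary libraries. Autograft 2 and aortic 2 were the highest, and pulmonary 1 lay above autograft 1. The log2 fold change against pulmonary sinus was 1.32 ± 0.43 with an edgeR adjusted p of 0.0713. Without pulmonary 1 it was called, at 1.54 with an adjusted p of 0.0443, and without aortic 2 the adjusted p was 0.0462. Without autograft 2 it was 0.81 with an adjusted p of 0.264.

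HEYL and HEY2 thus differed in sign within the same libraries. As a description chosen after their values were seen, and with no test, HEYL divided by HEY2 in deposited FPKM was 2.31, 1.53 and 1.24 in the autograft libraries, 0.575, 0.450, 0.471 and 1.02 in the aortic libraries, and 0.534, 0.184, 0.246 and 0.622 in the pulmonary libraries. All 3 autograft ratios were above all 8 native ones. The step from counts to FPKM widened this difference. Autograft minus pulmonary FPKM per count, relative to other genes, was 0.19 log2 for HEYL and -0.26 for HEY2. In CPM the ratio ran from 0.785 to 1 in autograft, from 0.328 to 0.657 in aortic and from 0.168 to 0.415 in pulmonary libraries, again without overlap with the autograft.

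The 3 effectors moved with different cell type markers. HEY1 was high where the endothelial markers were high, with a Pearson r of 0.91 between its log2 CPM and the log2 summed level over the 11 libraries and 0.93 over the 8 native ones. HEY2 was high where the smooth muscle markers were high (r 0.79 over 11 libraries and 0.75 over the 8 native ones). HEYL gave r 0.51 with endothelial markers, -0.58 with smooth muscle markers and 0.75 with the summed arterial endothelial markers. GJA5, the gene of a gap junction protein, made 58.6% to 85.5% of that last sum in each library. EFNB2, an ephrin ligand of arterial endothelium in the same list, ran the other way, with 7.31, 1.11 and 3.41 CPM in autograft, 5.88 to 8.66 CPM in aortic and 5.999 to 11.3 CPM in pulmonary libraries (log2 fold change against pulmonary sinus -1.06, edgeR adjusted p 0.163). These values describe libraries that differ in tissue make-up and share their scaling, and they carry no test.

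The group of genes that rose with the endothelial markers was NOTCH1, NOTCH4, JAG2, DLL4 and HEY1. Their Pearson r with the summed endothelial level was 0.85, 0.93, 0.94, 0.92 and 0.91 over the 11 libraries, and 0.75, 0.85, 0.90, 0.94 and 0.93 over the 8 native ones. NOTCH2 ran the other way, with r -0.73 over the 11 libraries and -0.41 over the 8 native ones. For HEY2 these values were -0.44 and -0.61. Per 1000 CPM of endothelial markers, NOTCH4 had 13.9, 13.2 and 15.1 CPM in autograft libraries, from 10.97 to 20.7 CPM in aortic libraries and from 12.8 to 29.2 CPM in pulmonary libraries. On that scale the autograft libraries, which spread from 3.09 to 30.3 CPM before, lay together and within the aortic range. DLL4 had 5.07, 5.52 and 8.18 CPM per 1000 CPM of endothelial markers in autograft libraries, from 10.1 to 14.3 CPM in aortic libraries and from 6.15 to 12.7 CPM in pulmonary libraries. All 3 autograft libraries were below the aortic ones on that scale. NOTCH1 and HEY1 did not come together: NOTCH1 had 44.3, 17.0 and 20.1 CPM per 1000 CPM of endothelial markers in autograft 1, 2 and 3, 34.2 to 57.3 CPM in aortic and 36.8 to 99.7 CPM in pulmonary libraries. HEY1 had 34.4, 9.31 and 8.65 CPM in autograft 1, 2 and 3, 14.8 to 18.8 CPM in aortic and 13.3 to 24.6 CPM in pulmonary libraries on the same scale. For both genes autograft 2 and 3 lay below every native library and autograft 1 did not. JAG2 had 0.507, 0.382 and 0.478 CPM on that scale in autograft, 0.498 to 0.894 CPM in aortic and 0.562 to 1.17 CPM in pulmonary libraries. The sum behind that scale was uneven in its markers. PECAM1 had 27.7, 520 and 364 CPM in autograft 1, 2 and 3, and VWF 29.1, 593 and 328 CPM. KDR had 41.5, 61.3 and 35.3 CPM in the same libraries, and ERG 52.7, 84.9 and 48.4 CPM. A scale on other markers of the list was not tested.

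**Figure D4:**
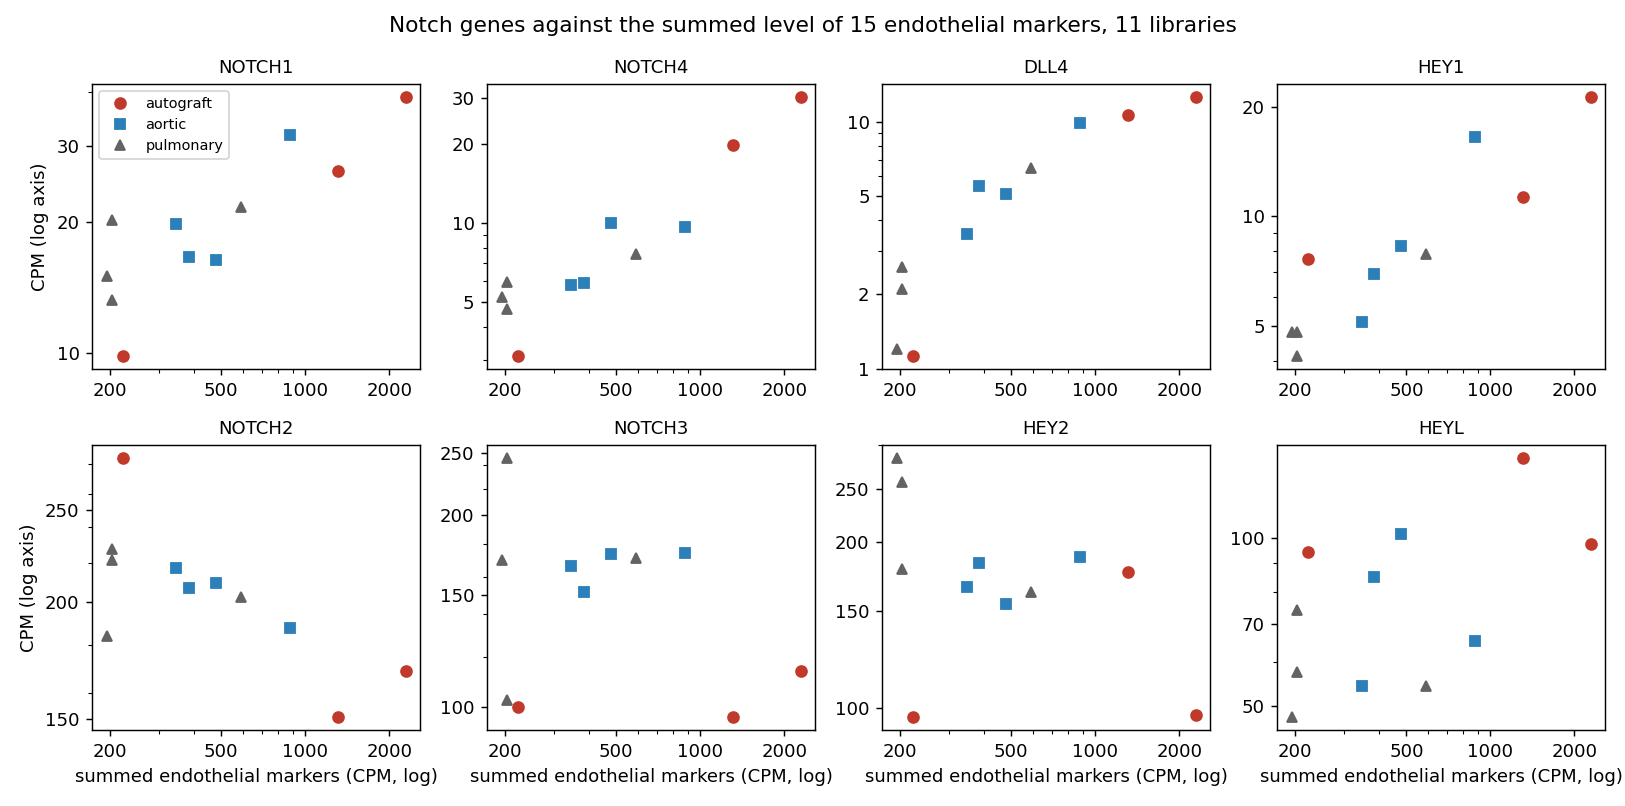
CPM of 8 Notch genes (vertical, log axis) against the summed CPM of 15 endothelial markers (horizontal, log axis) in the 11 libraries. NOTCH1, NOTCH4, DLL4 and HEY1 in the upper row rise with the marker sum across all groups. In the lower row NOTCH2 runs opposite to the sum (r -0.73), while NOTCH3, HEY2 and HEYL show no such rising line.

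The endothelial markers themselves were uneven in the autograft. All 15 were tested and all 15 were positive against pulmonary sinus, with a median log2 fold change of 2.11, and 2 were called. Their sum ran from 222 to 2287 CPM in autograft and from 195 to 590.3 CPM in pulmonary libraries, and none of the 15 was at 0 in any library. Summed adipocyte markers moved the same way, with 40.9, 915 and 474 CPM in autograft 1, 2 and 3 against 13.1 to 229 CPM in pulmonary libraries. A further fit took the mean log2 CPM of the 15 endothelial markers, rather than their sum, as a covariate. In it the autograft and pulmonary difference was -0.12 for NOTCH4, -0.58 for DLL4, -0.50 for NOTCH1, -0.39 for JAG2 and 0.48 for HEY1, none of them called. The same covariate left HEYL at 0.89 (edgeR adjusted p 0.114), HEY2 at -0.84 (0.181) and NOTCH3 at -0.79 (0.143), beside 0.92, -0.84 and -0.74 without it. HEYL was no longer called. Under this covariate 294 genes of all those tested were called, beside 1699 without it.

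NOTCH3 and HEY2 lay beside lower smooth muscle markers in the autograft, while pericyte markers went both ways. Of 12 smooth muscle markers 11 were tested, all 11 were negative against pulmonary sinus with a median log2 fold change of -0.60, and 4 were called. The summed levels were 31305 to 59974 CPM in autograft and 63252 to 102329 CPM in pulmonary libraries. In aortic libraries they were 59485 to 83636 CPM, which overlapped the autograft, while NOTCH3 did not overlap between those groups. NOTCH3 gave r 0.59 with the smooth muscle sum over the 11 libraries and 0.26 over the 8 native ones. The pericyte markers summed to 1181 to 1592 CPM in autograft and 1799 to 2410 CPM in pulmonary libraries, with 2 of 7 tested genes called lower (MCAM and ABCC9), 3 of 7 positive (RGS5, PDGFRB and NDUFA4L2) and HIGD1B at 0 in aortic 3. MCAM, a cell adhesion gene, made much of that sum, and without it the sums overlapped, at 636 to 1238 CPM in autograft and 735 to 982 CPM in pulmonary libraries. With the mean log2 CPM of the 11 smooth muscle markers as a covariate the difference was -0.23 for HEY2 (edgeR adjusted p 0.763), -0.52 for NOTCH3 (0.503) and 0.71 for HEYL (0.350). Under this covariate 1 gene of all those tested was called. The summed CPM of the markers, a different quantity from the covariate, did not overlap between autograft and pulmonary libraries.

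Markers of other cells also differed in sum between autograft and pulmonary sinus beside HEYL, without overlap for fibroblasts and for T and natural killer cells, and with overlap for macrophages. The fibroblast markers summed to 10588 to 14006 CPM in autograft and 2754 to 8839 CPM in pulmonary libraries, with 10 of 10 positive and 3 called. The markers of T and natural killer cells summed to 42.9 to 56.3 CPM in autograft and 3.42 to 8.19 CPM in pulmonary libraries, with 9 of 9 tested positive and 8 called. The macrophage markers summed to 139 to 1288 CPM in autograft and 57.5 to 300.4 CPM in pulmonary libraries, with 9 of 9 tested positive and 3 called. The part of these cells in the HEYL level was not tested.

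Aortic and pulmonary sinus were compared within the same 4 animals. JAG1 was lower in aortic than in pulmonary sinus in 4 of 4 animals, by -0.05, -0.26, -0.60 and -0.23 on the log2 CPM scale in D3, D4, D5 and D6. Its difference in the main fit, which has no block and so ignores the pairing by animal, was -0.34. The 95% interval of that fit was from -0.89 to 0.21, and JAG1 was not called. DLL4 was higher in aortic sinus in 3 of 4 animals, with differences of -0.24, 2.93, 0.70 and 0.96. HEY1 showed the same signs, with -0.17, 1.76, 0.30 and 0.77. These signs rest on the animals as labelled: over all genes, deviations from the group means correlated at -0.18 and -0.13 within D3 and D4, but at 0.40 between aortic 2 and pulmonary 1 and 0.26 between aortic 1 and pulmonary 2. Set against pulmonary 1, aortic 2 was higher in JAG1 (84.6 and 76.2 CPM) and in DLL4 (9.85 and 6.49 CPM). Aortic 1 against pulmonary 2 was lower in JAG1 (73.6 and 101 CPM) and higher in DLL4 (5.48 and 1.20 CPM).

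The endothelial sum had those signs too. It was 384 CPM in aortic and 590.3 CPM in pulmonary sinus of D3, 879.6 and 195 CPM in D4, 345 and 203 CPM in D5, and 480.3 and 203 CPM in D6. Its part in the native differences of DLL4 and HEY1 was not tested. The intervals of the native differences, also from the main fit without pairing, were wide. They ran from -0.52 to 2.43 for DLL4, from -0.12 to 1.67 for HEY1, from -0.70 to 1.54 for NOTCH4 and from -0.85 to 0.15 for HEY2. That of NOTCH2 was narrower, from -0.41 to 0.36.

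Beyond the 10 genes, 49 other Notch pathway genes were listed by role, of which 48 had a row and 45 were tested. Against pulmonary sinus 8 of the 45 were called, of which 2 rose and 6 fell, beside 11.3% of all genes, and their median log2 fold change was 0.00, as over all genes. MAML3, the gene of a Mastermind-like coactivator in the nuclear complex, was among those that fell, with 2.75, 2.39 and 2.67 CPM in autograft libraries, 5.83, 4.598, 6.08 and 5.74 CPM in aortic libraries, and 5.08, 7.53, 8.71 and 6.51 CPM in pulmonary libraries. The autograft libraries were below all native ones. Its log2 fold change was -1.42 ± 0.23 against pulmonary sinus (edgeR adjusted p 0.0096), and it stayed called whichever library was left out (adjusted p from 0.0039 to 0.0402). The call was lost with the endothelial covariate, at -1.18 (adjusted p 0.0566), and with the smooth muscle covariate, at -1.21 (0.188).

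Against aortic sinus MAML3 fell by 1.09 on the log2 scale, with an edgeR adjusted p of 0.0380. It was the 1 call among the 45 genes there, beside 2.38% of all genes. Of the 11 fits that left out a library it remained called in 2, those without pulmonary 1 or pulmonary 2. Its adjusted p reached 0.120 in the others and was 0.0561 with the endothelial covariate. Against pulmonary sinus the corepressor gene SPEN, at -0.87 (edgeR adjusted p 0.0197), and the coactivator gene MAML2, at -0.53 (0.0318), were lower as well. The SPEN call was lost without autograft 2, pulmonary 2 or pulmonary 3 (adjusted p up to 0.0631), and the MAML2 call without autograft 2, autograft 3, pulmonary 3 or pulmonary 4 (up to 0.102). SPEN had 15.5 to 17.7 CPM in autograft, 18.9 to 33.96 CPM in aortic and 26.2 to 34.5 CPM in pulmonary libraries. RBPJ, the DNA-binding partner they act on, had 189, 133 and 106 CPM in autograft, from 116 to 140.2 CPM in aortic and from 128 to 172 CPM in pulmonary libraries, with log2 fold changes of -0.04 and 0.17 against pulmonary and aortic sinus and adjusted p of 0.902 and 0.597.

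MFNG, a Fringe glycosyltransferase that modifies Notch receptors and alters which ligands they answer, was the larger of the rises. It had 9.56, 38.9 and 16.3 CPM in autograft libraries, 10.3, 18.9, 6.25 and 8.16 CPM in aortic libraries, and 8.19, 3.02, 2.57 and 2.86 CPM in pulmonary libraries. The log2 fold change against pulmonary sinus was 2.38 ± 0.56 (edgeR adjusted p 0.0256), and with the endothelial covariate it was 1.29 (adjusted p 0.0567). The call was lost without autograft 2, pulmonary 2, pulmonary 3 or pulmonary 4 (adjusted p up to 0.0986). APH1A, a subunit of the gamma-secretase that cuts the receptor, rose by 0.53 (adjusted p 0.0360), with 51.6 to 70.002 CPM in autograft and 36.97 to 48.9 CPM in pulmonary libraries. It was not called without autograft 1, autograft 2, aortic 4, pulmonary 2, pulmonary 3 or pulmonary 4 (adjusted p up to 0.113).

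The turnover genes DTX3 and MIB2, both E3 ubiquitin ligase genes, fell by 0.68 and 0.58 with adjusted p of 0.0493 and 0.0475, and of the 11 fits that left out a library each remained called in 1, the fit without pulmonary 1 (adjusted p up to 0.126 and 0.120 in the others). With the endothelial covariate none of the 8 genes called against pulmonary sinus stayed called (edgeR adjusted p from 0.0566 to 0.230). Over all genes 294 were called with that covariate, beside 1699 without it. HES1, the other classical Notch effector, had 24.1, 14.0 and 23.0 CPM in autograft, from 13.4 to 32.5 CPM in aortic and from 10.8 to 27.0 CPM in pulmonary libraries, and its log2 fold change against pulmonary sinus was 0.12 with an interval from -0.69 to 0.92. DLL1, a further ligand, had 2.59, 14.1 and 16.9 CPM in autograft, from 6.19 to 27.4 CPM in aortic and from 6.34 to 12.6 CPM in pulmonary libraries, and was not called (0.47 against pulmonary sinus, adjusted p 0.647).

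**Figure D5:**
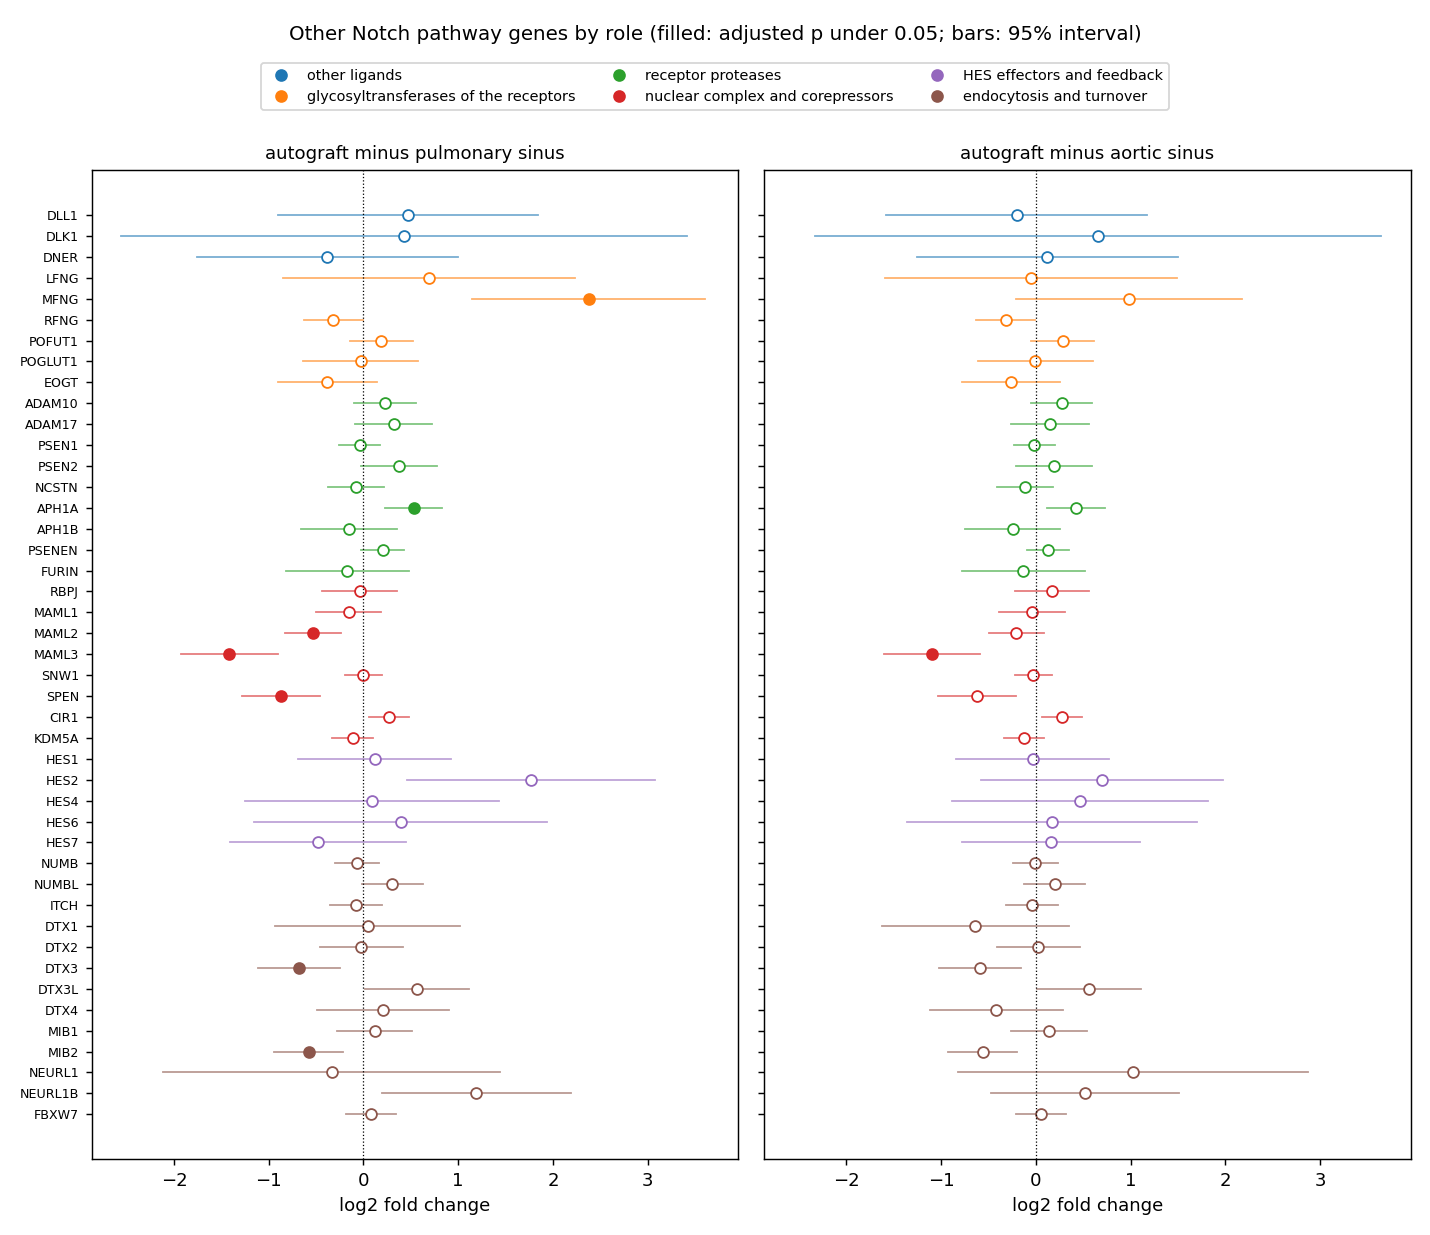
Fitted log2 fold changes (horizontal axis) of 44 of the 45 other Notch pathway genes tested, by role, in autograft minus pulmonary and autograft minus aortic sinus, with 95% intervals as bars and called genes filled. MAML3 is filled in both panels, at -1.42 and -1.09.

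For each of the 10 genes, up to 3 genes with the most similar pattern are given, by Pearson's r of log2 CPM over the 11 libraries, among 10929 genes with a mean of at least 5 CPM. NOTCH1 was most like PKN3, AQP1 and EGFL7 (r 0.95 to 0.96), NOTCH4 like GGT5, PLVAP and LOC101104661 (0.95 to 0.96), JAG2 like RASIP1, VWF and USP2 (0.96 to 0.97) and DLL4 like SPNS2 and FAM110D (both 0.96). EGFL7, PLVAP and VWF are among the 15 endothelial markers. HEY1 was most like AGTRAP, RNASEK and PPP1CA (0.96 to 0.97), HEY2 like ZNF358, RGS9 and CLIP3 (0.97) and HEYL like SWI5, C5H19orf53 and SQRDL (0.92 to 0.96). NOTCH2 was most like SEPT8, LOC101104348 and PHACTR4 (0.91 to 0.92), NOTCH3 like ETNK2, FAM193A and HAUS5 (0.89 to 0.90), and JAG1 like ZNF180, MED22 and CHD8 (0.87 to 0.91).

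Among the 10 genes themselves, NOTCH4 and JAG2 were the most alike (r 0.90), and NOTCH4 and NOTCH2 ran opposite (r -0.83). HEYL ran opposite to NOTCH3 (r -0.67), and HEY2 ran with NOTCH3 (r 0.61). These are descriptions over 11 libraries that hold 3 groups.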

How the data were processed

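Libraries of 11 sinus samples were made with a TruSeq kit from TRIzol RNA, per the labels' protocols, and each was sequenced in 2 runs. The submitters' processing notes list featureCounts 1.5.3, STAR 2.5.2b, cutadapt and Bowtie2 2.3.3.1. Genome build, annotation and strand setting were not stated in the sources used here, so no coordinates are printed and reads of overlapping, antisense or near-identical genes cannot be separated. The authors deposited raw counts per gene and run; a row without a gene name, at most 0.000522% of a library, was left out. The authors also deposited FPKM per run. Their FPKM per count of a gene varied between libraries by a log2 range of 0.76 for HEY2, 0.69 for NOTCH1 and 0.66 for NOTCH3, beside a median of 0.36 over 10645 genes, so they are not the counts under a single scaling per library (no label names the step behind this); JAG2, in the FPKM table of 1 run, was not used in FPKM.

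Counts of both runs were added, since the chi-square per gene was 1.38 to 1.51 between runs of 1 library and 30.1 to 105 between libraries of 1 group. Tests used edgeR 4.0.16 (quasi-likelihood, filterByExpr, TMM) on all 11 libraries in a single model with no block, under R 4.3.3. DESeq2 1.42.0 and limma 3.58.1 served alternatives. SE and 95% intervals come from that fit. CPM carry the TMM scaling, and log2 CPM a prior count of 2. The 10 genes and all lists were chosen with earlier results of these data known. Named beside the 10 were the other pathway genes called, RBPJ, HES1, DLL1 and the 3 most similar genes of each; 2 of these genes are not reported here. The fit was tested on simulated counts. Alternatives covered DESeq2, limma-voom, scaling, filters, single runs, FPKM with pseudocounts of 1 and 0.1, left-out libraries, marker covariates and the animal as block. Same-numbered aortic and pulmonary libraries come from 1 animal, per the labels, with correlations of their deviations from the group means of -0.18, -0.13, 0.43 and 0.45 for D3 to D6. Autograft numbers only name animals.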

Additional observations from a re-analysis of the deposited data

How the results depend on the processing

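Of the 789 values that the alternatives gave for the 10 genes in the 3 comparisons, 755 kept the sign of the fit reported, and the 34 that did not were uncalled. Between autograft and pulmonary sinus the number of the 10 genes called, 1 as reported, was 5 with DESeq2, 2 with limma-voom, 2 with run 1, 3 with run 2, 2 without animal D3, 0 with the endothelial covariate and 0 with the smooth muscle covariate. It ran from 0 to 3 when 1 library was left out: 0 without autograft 2, pulmonary 2 or pulmonary 3, and 3 without pulmonary 1. Without both pulmonary 1 and autograft 1, a choice made after the data were seen, it was 4. Between autograft and aortic sinus the number, 0 as reported, was 1 with DESeq2, 1 in the fit of those groups alone, 1 without pulmonary 1 and autograft 1, and 0 to 1 with a library left out. Between aortic and pulmonary sinus it was 0 in each alternative. HEYL was called against pulmonary sinus in 21 of 27 alternatives, HEY2 in 8, HEY1 in 5, NOTCH3 in 4, NOTCH4 in 3 and DLL4 in 1. These alternatives share libraries, and those without an aortic library leave both compared groups whole. They include the choice made after the data were seen, which gave the 1 call of DLL4.

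Of the 34 signs that turned, 13 came with the endothelial covariate, and the cause was not tested. The others came with a library left out or with other settings. Not all of these were near 0: NOTCH1 against aortic sinus reached -0.22 with a library left out, beside 0.24 in the fit reported. Against pulmonary sinus that covariate gave -0.50 for NOTCH1, 0.20 for NOTCH2, -0.12 for NOTCH4, -0.39 for JAG2 and -0.58 for DLL4. Against aortic sinus it gave -0.23 for NOTCH1, 0.039 for NOTCH2, -0.32 for JAG2 and -0.64 for DLL4, and between the native sinuses -0.28 for NOTCH1, 0.16 for NOTCH2, -0.38 for NOTCH4 and -0.0699 for JAG2. Against aortic sinus JAG1 was 0.035 with FPKM + 1, 0.039 with FPKM + 0.1, 0.035 with a minimum mean FPKM of 1 and 0.12 with the smooth muscle covariate, and DLL4 was -0.0883 with limma-voom. With 1 library left out, NOTCH2 ran from -0.40 to 0.11 against pulmonary and from -0.35 to 0.14 against aortic sinus. Against aortic sinus NOTCH1 then ran from -0.22 to 0.63, JAG1 from -0.17 to 0.0865, JAG2 from -0.0296 to 0.98 and DLL4 from -0.0136 to 0.97. Between the native sinuses NOTCH1 ran from -0.0118 to 0.37, NOTCH2 from -0.0815 to 0.0190 and NOTCH3 from -0.24 to 0.16, and NOTCH3 was 0.0164 with limma-voom.

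With the replicate number as a fixed block, 3 of the 10 genes were called against pulmonary sinus (HEYL, HEY2 and NOTCH3) and 2 with the animal as a random effect in limma-voom. The fixed block gave 0.0041 for NOTCH3 between the native sinuses, and the random block 0.0160, and -0.0882 for DLL4 against aortic sinus. The block changed no call between the native sinuses, the 1 comparison where a number marks an animal. Autograft 2 correlated best with aortic 2 among aortic libraries (0.22), autograft 3 with aortic 3 (0.13), and autograft 1 with aortic 3 (0.08) rather than aortic 1 (0.03).

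The counts over all genes moved by over 1.5 times in several settings. Against pulmonary sinus, 1699 as reported, they were 2997 with DESeq2, 479 in the fit of those groups alone, 294 with the endothelial covariate and 1 with the smooth muscle covariate, and ran from 452 to 2757 with a library left out. Against aortic sinus, 356 as reported, they were 1469 with DESeq2, 681 with the fixed block, 206 with the endothelial covariate, 21 with the smooth muscle covariate and 110 without animal D3, and ran from 25 to 579 with a library left out. Depth limits JAG2, with 2 to 15 counts a library, and with 3 or 4 animals a group the intervals of DLL4, JAG2 and NOTCH4 span more than 2 log2 units.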
